A study of Mus musculus with 4 samples.

Results

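The 6 Reg genes of mouse chromosome 6, Reg3b, Reg3d, Reg3a, Reg2, Reg1 and Reg3g, were examined as a family out of 21887 protein-coding genes. They were taken by name, and their open regions were the merged regions of all peak lists that lay in a member or within 100 kb of one. This gave 13 regions out of 119965. The assay was ATAC-seq, whose transposase cuts and tags accessible DNA, on stem cells sorted from intestinal crypts. The small-intestinal stem cells (SISC) were sorted as positive for Lgr5-EGFP and negative for CD24, with 2 libraries. The large-intestinal stem cells (LISC) were sorted as Lgr5-EGFP positive, with 2 libraries and no CD24 gate named. All mice were 6 to 12 weeks old, carried the Lgr5-EGFP-IRES-creERT2 allele, in which the Lgr5 locus drives EGFP and an inducible Cre, and received no treatment. The labels do not say if a group's libraries stem from different animals, and the p-values measure only the spread between these libraries.

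Reg proteins are small secreted C-type lectins of the gut and pancreas. Reg3g and Reg3b act on gut bacteria at the epithelial surface, and both genes are known to be induced in the small intestine by the microbiota and by interleukin-22 through STAT3. Reg1 and Reg2 are best known from the exocrine pancreas and from regenerating pancreatic islets.

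The stretch that holds the Reg genes was called open at more places in SISC than in LISC. Of its 13 regions, 8 were called in both SISC libraries and in neither LISC library, termed SISC-only, which was 61.5% of them beside 7.96% of all regions in the genome. None was called in both LISC libraries alone, beside 10.2% of all regions. Another 3 regions were called in all 4 libraries (23.1%, beside 48.2% of all regions), and 2 were called in SISC replicate 1 alone. The regions are neighbours and not independent of each other, so these shares describe the locus and carry no test. The libraries had 13 and 11 of the regions in SISC replicates 1 and 2, and 3 each in LISC replicates 1 and 2. The mean was 12 ± 1.41 regions in SISC and 3 ± 0 regions in LISC (SD, n = 2 each). The difference of 9 regions had a two-sided exact permutation p of 0.333, the smallest that 2 libraries against 2 allow. Peaks covered 6.44 and 6.00 kb in the SISC libraries and 1.89 and 1.76 kb in the LISC libraries, again without overlap of the groups (exact permutation p = 0.333).

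The 4 lists held 83443 and 93220 peaks in SISC and 91313 and 88739 in LISC, so list length did not order the libraries as the locus did. Per 10000 peaks of a list, 1.56 and 1.29 lay at the Reg genes in SISC, against 0.329 and 0.338 in LISC. Read depth is unknown, and where a list has no peak the site was uncalled, which does not show it closed. A site open in fewer cells and a site less open in each cell cannot be told apart in sorted pools. Y-chromosome regions numbered 6 and 0 in SISC replicates 1 and 2 and 8 and 0 in LISC replicates 1 and 2. The libraries of each group thus also differed in this respect, and by replicate number in the same order in both groups. The counts of SISC-only regions stood at 9 without SISC replicate 1 and 10 without SISC replicate 2. Without SISC replicate 2, regions 5 and 8, called in SISC replicate 1 alone, became SISC-only. Without SISC replicate 1, the 2 peaks of SISC replicate 2 in region 11 were no longer joined and counted separately. Leaving out a SISC library loosens the rule or splits a region, so these counts could only stay or rise.

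**Figure D1:**
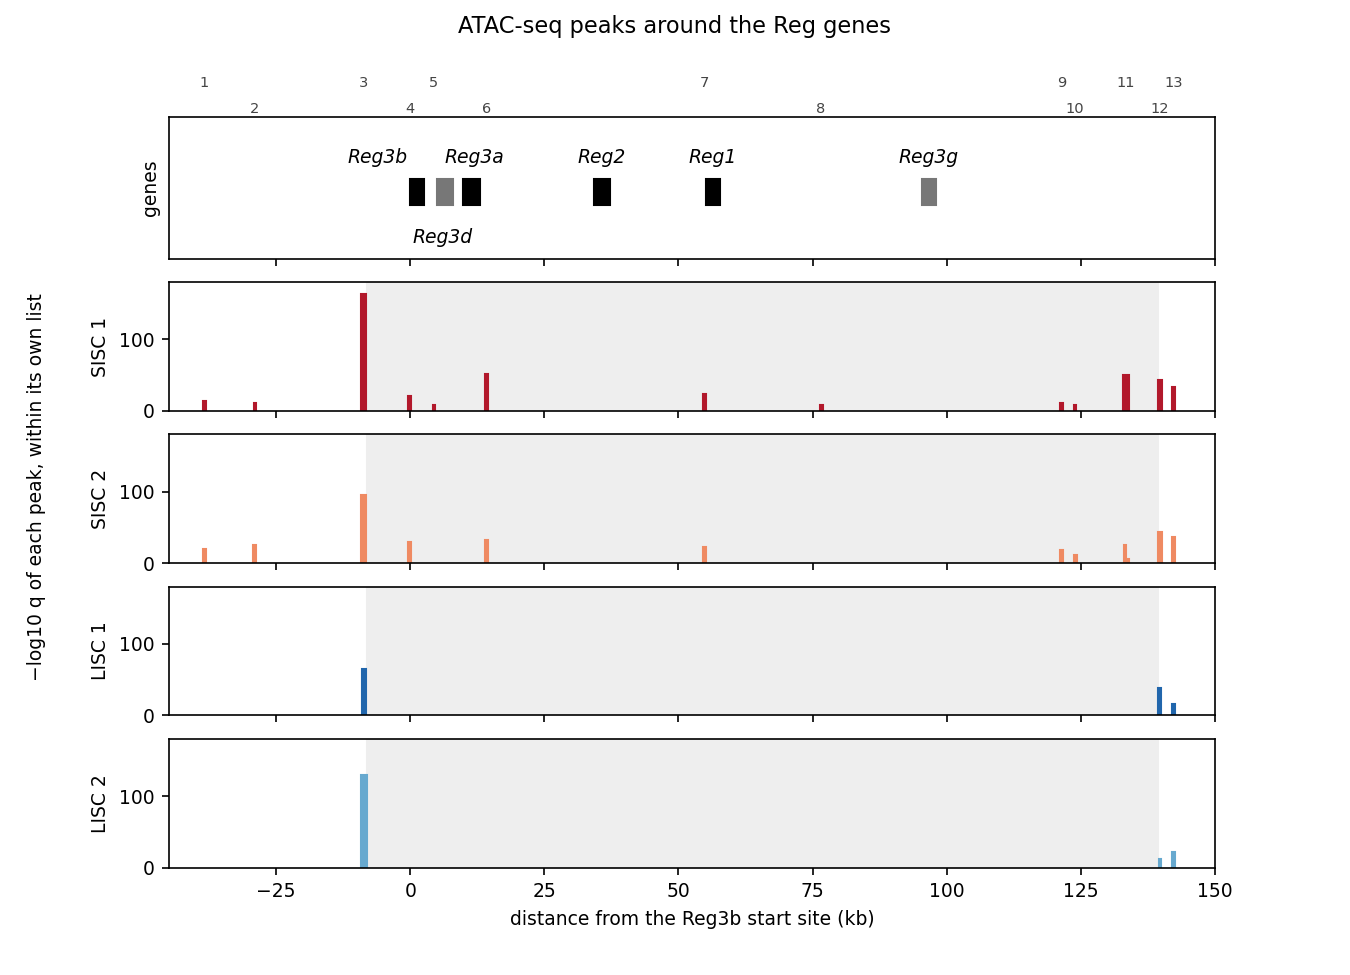
Peaks of each library along the Reg genes, with distance from the Reg3b start site on the x axis in kb and the authors' −log10 q of each peak, on the scale of its own list, on the y axis. Genes on the plus strand are black and on the minus strand grey, region numbers stand on top, peaks narrower than 0.5 kb are drawn 0.5 kb wide, and the grey band marks the 147.5 kb with no LISC peak, where SISC replicate 1 had 8 regions and SISC replicate 2 had 6.

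The family is a compact cluster with little around it. The genes span 98.0 kb, from 78370885 to 78468874 on chromosome 6 (mm10), and each is 2.58 to 3.13 kb long. Reg3b, Reg3d and Reg3a lie 1.84 to 2.41 kb apart, and the gaps to Reg2, Reg1 and Reg3g are 21.3, 17.9 and 37.6 kb. The nearest protein-coding gene before the cluster, Ctnna2, ends 391 kb away, and the next one after it, Gm20594, starts 1349 kb away. Within the 100 kb window the table has no other protein-coding gene and 2 pseudogenes, Gm52853 and Gm6072. The 13 regions, numbered 1 to 13 along the chromosome, occupy 181 kb, from 78332260 to 78513427. Regions 4 and 7 overlap a Reg gene, and the other 11 lie between genes. No peak of any library lay in the 352 kb before them or the 183 kb after them.

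Between regions 3 and 12, neither LISC library had a peak for 147.5 kb (78362803 to 78510313), a stretch that holds all 6 genes. SISC replicate 1 had 8 regions in it and SISC replicate 2 had 6, and 6 of the regions were SISC-only. Stretches of at least 100 kb with no peak of either LISC library numbered 3499 on the autosomes and the X chromosome. Of these, 2579 (73.7%) held no SISC-only region and 25 (0.714%) held 6 or more. The stretch was picked out after its values were seen, and its rank among the others is a description.

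At start sites, Reg3b and Reg1 had a region within 1 kb that was SISC-only. The same held for 1.21% of the 17492 protein-coding genes with an annotated start site. No member had a LISC-only one, beside 0.56% of those genes. The other 4 members, Reg3d, Reg3a, Reg2 and Reg3g, had none in any library, as did 32.7% of those genes. Taking either end of the gene instead added Reg3a, whose region lies at its far end, beside 1.38% of all protein-coding genes with a SISC-only region at an end.

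**Figure D2:**
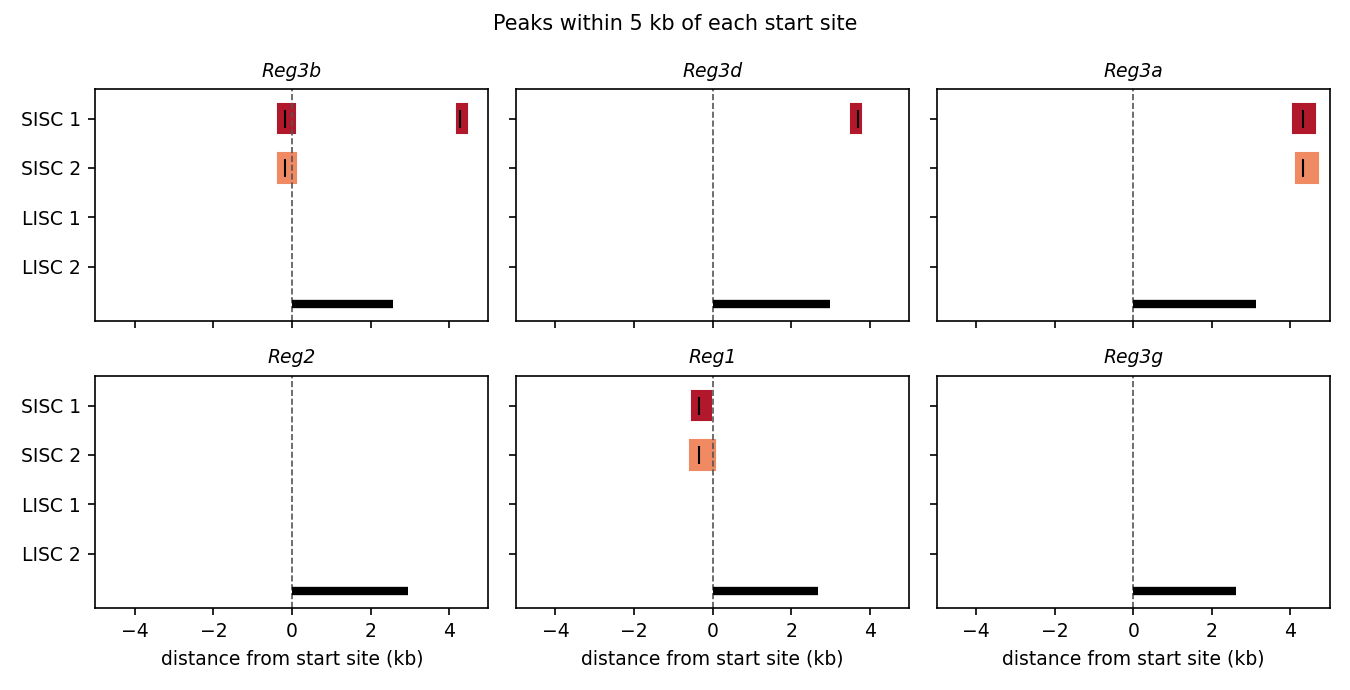
Peaks within 5 kb of the start site of each Reg gene, with distance in the direction of transcription on the x axis in kb and one row for each library, SISC above LISC. Coloured bars are peaks, black ticks their summits and the black line at the foot the gene, and a peak lies at or within 0.05 kb of the start sites of Reg3b and Reg1 in both SISC libraries and at no other start site or library.

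Reg3b, a bactericidal lectin of the small-intestinal epithelium, spans 78370885 to 78373466 on the plus strand. Its start site lay inside region 4 (78370529 to 78370991). The −log10 q there was 20.1 in SISC replicate 1 and 29.3 in SISC replicate 2, with a fold enrichment over local background of 5.64 and 6.30, all of them the authors' values. No LISC library had a peak there, the nearest LISC peaks ending 8.17 kb (replicate 1) and 8.08 kb (replicate 2) from the start site. The summit fell on the same base in both SISC libraries, 167 bases before the start site. In each SISC library the peak covered all 300 bases of the RefSeq promoter window, which runs from 250 bases before to 50 bases after the start site. Within their own lists these peaks stood at percentiles 34.4 and 46.9 of −log10 q.

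Reg1, a lectin of pancreatic acinar cells also known as pancreatic stone protein, spans 78425983 to 78428668 on the plus strand. Region 7 (78425413 to 78426045) lay over its start with a −log10 q of 24.3 and 22.8 in SISC replicates 1 and 2. The fold enrichment was 6.23 and 5.51. The summits lay 353 and 348 bases before the start site, 5 bp apart, and the peaks covered 201 and all 300 bases of the promoter window. The SISC replicate 1 peak stopped 50 bp short of the start site itself. The nearest LISC peaks were 63.3 and 63.2 kb away, the farthest among the 6 start sites.

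The 250 bases before the start site are shown for Reg3b and Reg1, which had SISC-only regions at their starts, and for Reg3g, whose promoter is the most like that of Reg3b and had no peak. They are RefSeq sequences of GRCm38.p6, the assembly of mm10, written 5′ to 3′ in the direction of transcription, and capitals mark matches to the motifs named after them.
Reg3b (chr6:78370635-78370884, plus strand): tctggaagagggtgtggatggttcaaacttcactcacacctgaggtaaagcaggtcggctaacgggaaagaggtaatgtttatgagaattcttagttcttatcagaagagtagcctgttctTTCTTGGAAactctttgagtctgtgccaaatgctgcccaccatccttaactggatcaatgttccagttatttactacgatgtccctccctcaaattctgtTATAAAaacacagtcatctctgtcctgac
Reg1 (chr6:78425733-78425982, plus strand): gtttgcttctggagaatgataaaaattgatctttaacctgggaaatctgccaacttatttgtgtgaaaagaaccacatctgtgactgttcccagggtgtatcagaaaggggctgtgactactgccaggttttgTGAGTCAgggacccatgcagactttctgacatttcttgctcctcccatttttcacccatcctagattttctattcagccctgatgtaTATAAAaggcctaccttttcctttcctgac
Reg3g (chr6:78468875-78469124, minus strand): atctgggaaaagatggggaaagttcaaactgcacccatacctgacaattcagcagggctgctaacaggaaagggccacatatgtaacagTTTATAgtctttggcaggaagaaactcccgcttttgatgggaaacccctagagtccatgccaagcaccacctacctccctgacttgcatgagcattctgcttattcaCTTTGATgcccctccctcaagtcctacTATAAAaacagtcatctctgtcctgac

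Exact matches to 7 motifs were searched on both strands of the 300-base windows. A TATA box (TATAAA) began 29 bases before the start site of Reg3b, 30 before Reg2, 30 before Reg1 and 27 before Reg3g, and 13.6% of all 32851 promoter windows held one on either strand. In Reg3g another match lay on the opposite strand, its far base 161 before the start site, and in Reg1 another lay after the start site, outside the bases shown. The STAT motif (TTCNNNGAA) matched in Reg3b, beginning 129 bases before the start site, and in Reg3d, 238 before, and in 8.3% of all windows. The TCF and LEF motif (ATCAAAG) matched in Reg3a, Reg2 and Reg3g, each on the opposite strand, and in 3.73% of all windows. The AP-1 motif (TGANTCA) matched in Reg1 and in 7.81% of all windows. No window of the family held the GATA motif (AGATAA). An HNF4 motif (CAAAGTCC) was not found in them either, nor was the CDX motif (CCATAAA). These are matches of letters and not measured binding sites. The TATAAA and TTCNNNGAA matches of Reg3b and the TGANTCA match of Reg1 lay under the SISC peaks that covered those bases.

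The promoter windows of Reg3b and Reg3g were identical at 69.0% of aligned positions and shared an unbroken run of 29 bases, found in no other gene's window in the table. The other pairs of Reg3 windows stood at 49.9 to 55.9%. For comparison, the 6 members stood at 49.1 to 51.0% against Reg4, a family member on chromosome 3. The Reg3b window was thus called open in both SISC libraries and the most similar one, that of Reg3g, in none. These 2 windows are alike but not near-identical, with no shared run longer than 29 bases. How reads that fit several places were treated is not given in the sources used here. Any effect of such reads on the calls was not tested.

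Reg3a and Reg3d lie next to Reg3b. Reg3a, a secreted lectin of the same subfamily, spans 78380709 to 78383839 on the plus strand and had no region over its start. Region 6 (78384777 to 78385417) lay 938 bp beyond its far end. Its −log10 q was 51.4 in SISC replicate 1 and 31.9 in SISC replicate 2, with a fold enrichment of 8.84 and 6.60. By −log10 q it was the strongest SISC-only region of the cluster in both libraries, at percentiles 58.9 and 49.1 of the lists. Its summits lay 17 bp apart, and no LISC library had a peak there. Reg3d, related to the hamster islet protein INGAP, spans 78375874 to 78378865 on the minus strand. Region 5 (78375095 to 78375334) lay 540 bp beyond its far end and was called in SISC replicate 1 alone, with a −log10 q of 8.0, at percentile 10 of that list.

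Reg2, a pancreatic lectin close to Reg1, spans 78405155 to 78408099 on the plus strand and had no region within 10 kb. Its nearest SISC peaks were 19.8 and 19.7 kb from the start site and its nearest LISC peaks 42.4 and 42.4 kb. The 40.0 kb between regions 6 and 7, in which Reg2 lies, held no peak of any library.

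Reg3g, which kills Gram-positive bacteria by binding peptidoglycan, spans 78466269 to 78468874 on the minus strand. It too had no region within 10 kb of the gene. Its nearest SISC peaks were 21.3 kb away in replicate 1, beyond the far end of the gene, and 23.1 kb away in replicate 2, before the start site. The nearest LISC peaks were 41.4 and 41.5 kb away.

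**Figure D3:**
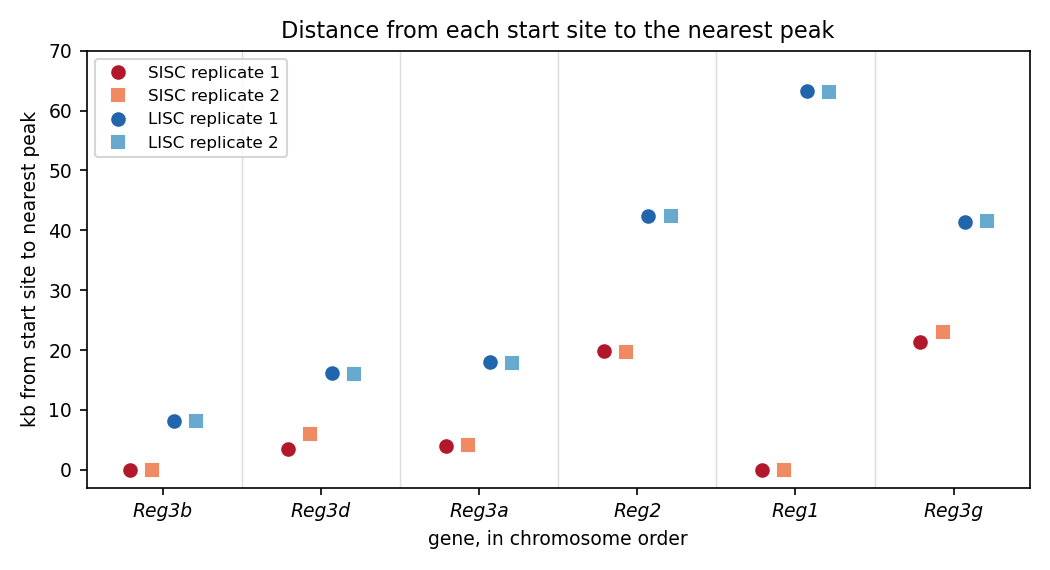
Distance in kb from the start site of each Reg gene (x axis, in chromosome order) to the nearest peak of each library (y axis), with circles for replicate 1 and squares for replicate 2. The SISC libraries lie below the LISC libraries at all 6 genes, with 0 or 0.05 kb for Reg3b and Reg1 in SISC and 63.3 and 63.2 kb for Reg1 in LISC.

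By nearest gene end, Reg3b and Reg3g had 3 SISC-only regions each and Reg3a and Reg1 had 1 each. Having 3 or more with no LISC-only region was seen at 1.48% of all protein-coding genes. Reg2 and Reg3d had none, and the median net number was 1 over the members and 0 over all genes. Reg3b and Reg3g face stretches of 391 and 1349 kb with no protein-coding gene, so this rule gives them the distant regions there. Genes with closer neighbours draw on less sequence, and the 1.48% is not a like comparison. The regions given to Reg3g this way were all distant. Regions 9 (78491981 to 78492544), 10 (78494527 to 78494966) and 11 (78503771 to 78504889) lay 23.1, 25.7 and 34.9 kb before its start site. For region 9 the −log10 q was 11.2 and 19.0 in SISC replicates 1 and 2, and for region 10 it was 8.0 and 11.4. Region 11 was stronger, with 50.7 and 26.0, and was 1119 bp wide, made of 1 peak in SISC replicate 1 and 2 peaks in SISC replicate 2. Its leading summits lay 1 bp apart.

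On the other side of the cluster, regions 1 (78332260 to 78332490) and 2 (78341645 to 78342035) lay 38.4 and 28.9 kb before the start of Reg3b. For region 1 the −log10 q was 13.3 and 19.8 in SISC replicates 1 and 2, and for region 2 it was 10.6 and 25.2. Neither had a LISC peak. Region 8 (78447322 to 78447576), between Reg1 and Reg3g, was called in SISC replicate 1 alone with a −log10 q of 8.62.

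The SISC-only regions of the cluster were of low to middle strength within their lists. Over the 8 regions the percentile of −log10 q ran from 10 to 58.9 in SISC replicate 1, with a median of 28.7, and from 22.2 to 49.1 in SISC replicate 2, with a median of 41.8. The medians over all 9555 SISC-only regions of the genome were 24.0 and 32.5 in the same libraries. Their median width was 513.5 bp, beside 457 bp over all SISC-only regions. When each list was reduced to its 41721 strongest peaks, none of the 8 was called in both SISC libraries, and regions 6 and 11 were left in SISC replicate 1 alone.

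**Figure D4:**
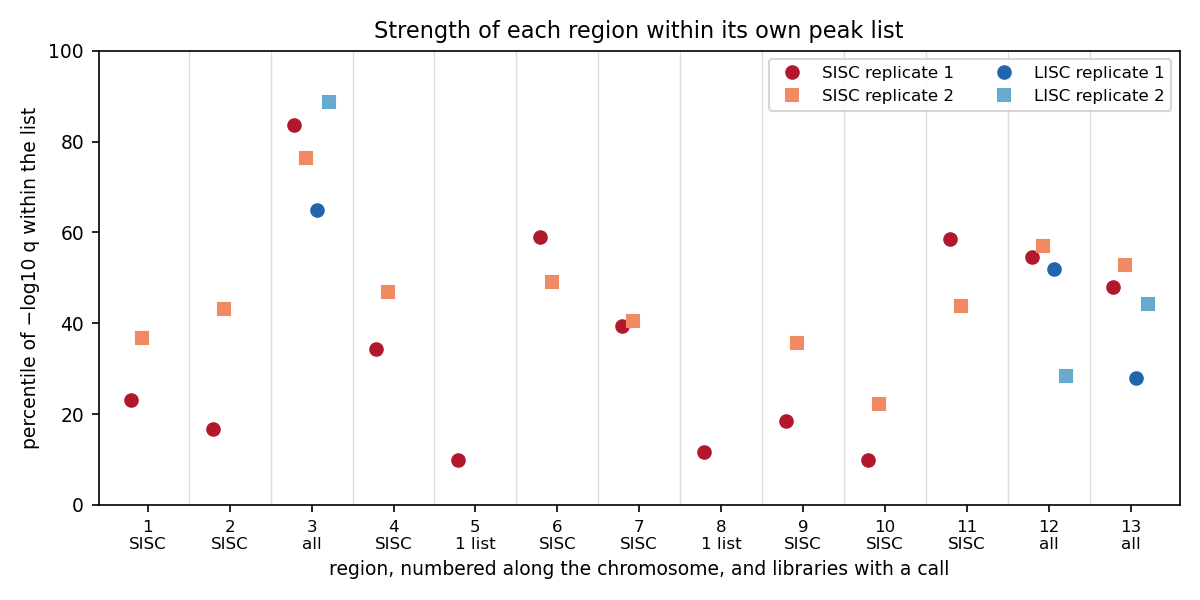
Percentile of −log10 q of each region within its own peak list (y axis, 0 to 100) for the 13 regions in chromosome order (x axis), with the libraries that called the region named under its number. Circles are replicate 1 and squares replicate 2, and the SISC-only regions lie at or below percentile 58.9 while region 3 lies between 64.9 and 88.7 in all 4 libraries.

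The 3 regions called in all 4 libraries lay outside the span of the genes, region 3 on the Reg3b side and regions 12 and 13 on the Reg3g side. Regions 1 and 2, both SISC-only, lay farther out than region 3. Region 3 (78361713 to 78362802), 8.08 kb before the start of Reg3b, was the strongest of the 13 in every library. Its −log10 q was 163.1 and 94.8 in SISC replicates 1 and 2, and 64.5 and 129.3 in LISC replicates 1 and 2. Its percentiles overlapped between the groups, at 83.7 and 76.3 in SISC and 64.9 and 88.7 in LISC. The position of its summit did not overlap. The summits lay 8739 and 8779 bp before the start site in SISC and 8616 and 8619 bp before it in LISC, so that at least 120 bp parted the groups (exact permutation p cannot go below 0.333). Of the regions called in all 4 libraries, 2.88% had summits parted between the groups by 100 bp or more. This feature of region 3 was chosen after its values were seen.

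Regions 12 (78510267 to 78511064) and 13 (78512904 to 78513427) lay 41.4 and 44.0 kb before the start of Reg3g. Region 12 had a percentile of 54.6 and 57.1 in SISC and 51.9 and 28.4 in LISC. Region 13 had 48.0 and 52.8 in SISC and 27.9 and 44.1 in LISC. In both regions the SISC libraries ranked above the LISC libraries, as they did in 29.2% of all regions called in all 4 libraries. Over the 3 shared regions the mean percentile was 62.1 ± 0.0249 in SISC and 51.0 ± 3.91 across the LISC libraries (SD, n = 2 each), a difference of 11.1 points (two-sided exact permutation p = 0.333). The SD of 0.0249 is that of means over regions and not the spread at a region. At region 3 SISC replicate 1 ranked higher, with 83.7 against 76.3, and at regions 12 and 13 SISC replicate 2 did. For region 3 alone, the one within 10 kb of a Reg gene, the groups overlapped and the difference was 3.20 points (exact permutation p = 1).

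Most genes listed for the induction of Reg3b and Reg3g had a gene-end region in both tissues. The list of 17 genes for interleukin-22 and STAT3 induction also held genes outside the chain from receptor to STAT3, Tlr4 among them. Of the 17, 15 had a gene-end region in all 4 libraries, beside 62.1% of all protein-coding genes. None was SISC-only, and 1 was LISC-only, the bacterial lipopolysaccharide receptor gene Tlr4, beside 0.694% of all genes. The counts that follow were of regions by nearest gene end, up to 100 kb away. Il22ra1, a subunit of the interleukin-22 receptor, had 6 regions, 5 of them in all 4 libraries and none SISC-only or LISC-only. Stat3, the transcription factor downstream of that receptor, had 8 regions, again with 5 in all 4 libraries and none SISC-only or LISC-only. Socs3, an inhibitor of the same pathway, had 11 regions, of which 7 were shared by the 4 libraries, 2 were SISC-only and 1 was LISC-only. The median net number of SISC-only regions over the list was 0, as over all genes.

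Other secreted antimicrobial and lectin genes were mixed. Of 24 such genes, 23 were in the gene table, 10 had a gene-end region in all 4 libraries and 11 had none in any, beside 32% of all genes. None was SISC-only or LISC-only. Reg4, a goblet and enteroendocrine lectin gene, had 16 regions by nearest gene end. Of these, 10 were shared by the 4 libraries, 2 were SISC-only and 1 was LISC-only. Reg4 had a gene-end region in every library. Extl3, proposed as a receptor of Reg proteins, had 11 regions by nearest gene end, 7 of them shared by the 4 libraries and 2 LISC-only.

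The sorted cell type was checked by its markers. Of all protein-coding genes, 62.1% had a gene-end region in all 4 libraries, 1.38% a SISC-only one, 0.694% a LISC-only one and 32% none. Of 9 crypt base stem cell genes, 9 and 8 had a gene-end region in the SISC libraries and 7 and 8 in the LISC libraries, with Lgr5 called in all 4 and Olfm4 SISC-only. Reg3b and Reg3g are also products of enterocytes and Paneth cells, so markers of these were counted beside the Reg regions. Of 10 absorptive enterocyte genes, 10 and 10 had a gene-end region in the SISC libraries and 7 and 7 in the LISC libraries, with Fabp1, Apoa4 and Rbp2 SISC-only. Of 6 Paneth genes, 4 and 4 were called in SISC and 3 and 4 in LISC, and Defa24 and Ang4 in no library. Of 6 pancreatic acinar genes, 1 and 1 were called in SISC and 2 and 2 in LISC, with Cela2a, a pancreatic elastase gene, LISC-only and Ptf1a, Cpa1, Cpb1 and Pnlip called in none. Immune genes were called at 3 and 3 of 5 in SISC and 2 and 2 in LISC. Itgam, a myeloid integrin gene, had a SISC-only gene-end region, and by nearest gene end it had 4 SISC-only and 1 LISC-only of 12 regions. Goblet and deep crypt secretory genes were called at 8 and 8 of 8 in SISC and 7 and 8 in LISC. Enteroendocrine genes were called at 4 of 5 in every library. Tuft genes were called at 2 and 3 of 3 in SISC and 3 and 2 in LISC. The part of other cells in the Reg regions, and of the CD24 gate named for SISC alone, was not tested.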

How the data were processed

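ATAC-seq peak lists of 4 libraries were used, 2 of SISC and 2 of LISC. Each library was made from 50000 cells with 10 PCR cycles, per the labels' protocols. The submitters' processing notes name MACS2 2.2.7.1, Bowtie2 2.3.4.1, cutadapt 3.4, bedtools and Picard, and the mm10 build. Information on their order and settings, any shift for the insertion site, duplicate handling and the calling threshold is not given in the sources used here. Peaks were called per library, since per the file headers and peak names each list carries 1 library's name. The deposited lists give for each peak a fold enrichment (a ratio) at the summit over that library's local background. They also give the authors' −log10 p and −log10 q and the deposited score, 10 times the −log10 q rounded down. These values depend on the library's depth, which is unknown, so strength was compared only as a percentile within a list.

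Peaks overlapping by 1 bp were merged, and the number of merged regions was checked against bedtools 2.31.1 (119965 by each). Genes came from RefSeq GRCm38.p6, and start sites from its promoter table, which held 17492 of 21887 protein-coding genes and all 6 members. Members, gene lists and tests were chosen with earlier results of these data known. Named were all 6 members with every region of their windows, other protein-coding genes ending in the windows, pathway-list genes with a SISC-only or LISC-only gene-end region, and Reg4, Stat3, Socs3, Il22ra1 and Extl3. Marker genes beyond these were named after their values were seen. Pla2g2a was not matched. Library values were compared by two-sided exact permutation tests, which with 6 assignments cannot pass 0.05. Promoter windows were aligned globally with biopython 1.88. Merging and group calls were tested on simulated data. Calculations ran in Python 3.11.15 with scipy 1.17.1, pandas 2.3.3 and numpy 2.4.6, and plots in matplotlib 3.10.9. Planned protein comparisons were not made, since no protein sequences were used here.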

Additional observations from a re-analysis of the deposited data

How the results depend on the processing

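Summit windows of 100 bp to each side, a rule that peaks cover 50% of a region and lists of equal length were tried. Each gave a SISC-only count within 1.5 times the 8 reported and no LISC-only region. Windows of 50 and 200 kb held the same 13 regions, so their counts could not differ. Start-site distances of 500 and 2500 bp gave the same 2 members, Reg3b and Reg1. Without 1 library the SISC-only count ran from 8 to 10, regions in all libraries stayed at 3, and members with a SISC-only start site at 2. Leaving out a library loosens the rule for a SISC-only call or splits a merged region, so the count could not fall below 8. Nor could a region become LISC-only, since every region with a LISC peak was also called in both SISC libraries. Within 10 kb of the genes, where fewer regions enter, 3 were SISC-only and 1 was called in all 4 libraries. Among the 41721 strongest peaks of each list, 1 region was SISC-only, 1 was called in all 4 libraries and 0 members had a SISC-only start site. That SISC-only region was region 12, called in all 4 libraries with whole lists, so the SISC-only calls rest on peaks outside the strongest 41721 in at least 1 SISC library.

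The SISC minus LISC differences kept their direction under all 11 alternatives each for regions, covered bases and percentile. Many of these alternatives could not have reversed it. Windows that held the same regions, and pairing by replicate number, repeat the main differences. Leaving out 1 library cannot reverse a difference between groups that do not overlap. For percentile, summit windows and lists of equal length gave 11.1 points again, since percentiles were kept from the whole lists. The size of the differences changed with the regions that entered. Within 10 kb of the genes they were 3.5 regions, 1656.5 bp and 3.20 percentile points, and among the 41721 strongest peaks 2 regions, 1500 bp and 3.20 points. Both settings left region 3 as the only region called in all libraries, so the percentile value was the same. The percentiles of the groups overlapped in both (exact permutation p = 1). With summit windows of fixed width the covered length differed by 1909.5 bp. Without 1 library the differences ran from 9 to 10 regions, 4174 to 4619 bp and 8.34 to 13.9 percentile points. With replicate numbers as pairs (the replicate block), the differences were 9 regions, 4396.5 bp and 11.1 points with an exact sign-flip p of 0.5 each, the smallest that 2 pairs allow. Nothing in the labels says that the numbers mark shared animals or days. Taking either gene end in place of the start site, which was chosen after seeing the data, gave 3 members with a SISC-only call.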
